A study of Mus musculus with 6 samples.

Results

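A set of 10 transcription factors that act downstream of the T cell receptor were followed in AOA-treated and vehicle-treated CD8+ T cells. They are the NFAT factors Nfatc1, Nfatc2 and Nfatc3, the AP-1 subunits Jun, Junb and Batf, the EGR factors Egr1 and Egr2, the nuclear receptor Nr4a1 and the BATF partner Irf4. The members were taken by gene symbol, and all 10 had a row among the 11922 genes of the deposited counts. Splenic CD8+ T cells of C57BL6/J mice were stimulated with anti-CD3/anti-CD28 Dynabeads in recombinant human IL-2 at 100 units per ml. Water (vehicle) or 0.25 mM AOA (aminooxyacetic acid, an inhibitor of enzymes that use vitamin B6 as cofactor) was present from the start. After 72 hours the cells were washed and expanded in IL-2 with the same treatment for another 4 days, and RNA was taken on day 7. The same 3 mice gave a culture to each group, so each group held 3 libraries, numbered by mouse, and the labels do not give the age of these mice. The levels below were therefore measured in cells grown in IL-2 after stimulation, not in freshly stimulated cells.

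As background, receptor engagement releases calcium, which activates the phosphatase calcineurin, and calcineurin strips phosphates from NFAT proteins so that they enter the nucleus. Ras and MAP kinase signals in parallel induce or modify the JUN and FOS proteins, which pair to form AP-1, and AP-1 binds DNA next to NFAT at many cytokine genes. EGR and NR4A genes are among the fastest to be transcribed after stimulation, whereas BATF and IRF4 bind together at composite elements in activated CD8+ T cells. NFAT acting without AP-1, EGR factors and NR4A factors have all been tied to T cell anergy and exhaustion.

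The libraries held between 12881962 and 21997078 counts. Vehicle replicate 2 and AOA replicate 1 stood apart from the other libraries of their groups: the chi-square statistic per gene was 55.2 and 59.9 for vehicle replicate 2 against the others and 70.9 and 64.3 for AOA replicate 1, compared with 10 and 10.5 for the remaining pairs. The label of the cells was checked against 7 CD8 T cell markers, all of which were measured, with a summed level of 4207 to 5224 counts per 1e6 library counts (CPM) in vehicle and 5133 to 6066 CPM in AOA libraries. Cd8a and Cd8b1 rose and Cd2 fell, and the other 4 did not pass the test. The call of Cd8b1 was lost without AOA replicate 3 (adjusted p = 0.0634). That of Cd2 was lost without vehicle replicate 3 (adjusted p = 0.0561), AOA replicate 2 (0.0525) or AOA replicate 3 (0.0577). Transcripts marking other cells were also present and moved with treatment. The 2 CD4 T cell genes Cd4 and Zbtb7b fell, with a summed level of 143 to 192 CPM in vehicle and 16.9 to 35.6 CPM in AOA libraries. Of 6 myeloid genes 4 had a row and the 2 that were tested, Itgam and Cd68, fell, the sum going from between 55.5 and 67.5 CPM to between 4.18 and 7.82 CPM, while the defining markers Lyz2 and Cd14 did not exceed 1.16 CPM in any library. The 2 NK genes summed to between 20.1 and 114 CPM in vehicle, highest in replicate 2, and to between 3.53 and 11.6 CPM in AOA libraries, with Klrb1c lower. The 3 plasma cell genes summed to between 3.42 and 19.9 CPM in vehicle, again highest in replicate 2, and to at most 2.54 CPM in AOA libraries, and 2 of them fell. Of these 2, Mzb1 lost its call without vehicle replicate 2 (adjusted p = 0.0692), AOA replicate 1 (0.0801) or AOA replicate 2 (0.0564). The 5 measured B cell genes of 7 summed to between 12.9 and 18.5 CPM in vehicle and 23.0 to 30.9 CPM in AOA libraries, with Cd79b higher and Ms4a1 at most 1.14 CPM. Of the 5 dendritic cell genes Xcr1 alone had a row and fell, and none of the 3 erythroid genes was analysed here. The part of these other transcripts in the results was not tested, and in bulk RNA fewer cells of a type and less RNA per cell cannot be told apart.

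All 10 genes passed the low-count filter. Of the 10, 6 fell with AOA (Egr1, Nr4a1, Junb, Irf4, Nfatc3 and Batf), and 0 rose. Among all 11759 genes tested, 26.8% fell and 26.2% rose at the same threshold (edgeR quasi-likelihood test, adjusted p under 0.05), so that 53% changed. The remaining 4, Nfatc1, Nfatc2, Jun and Egr2, did not pass the test. The fitted log2 fold change was below 0 for 10 of the 10, compared with 51.2% of all genes tested, and its median was -0.74 over the 10 and -0.02 over all genes. In 7 of the 10 every AOA library lay below every vehicle library, which was so for 31.1% of all genes tested. The reverse order was seen in 0 of the 10 and in 31% of all genes, and 62.1% of all genes were without overlap in either order. With a further minimum of 1 for the size of the log2 fold change, 3 of the 10 were called lower (Egr1, Nr4a1 and Junb), against 14.1% of all genes tested.

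**Figure D1:**
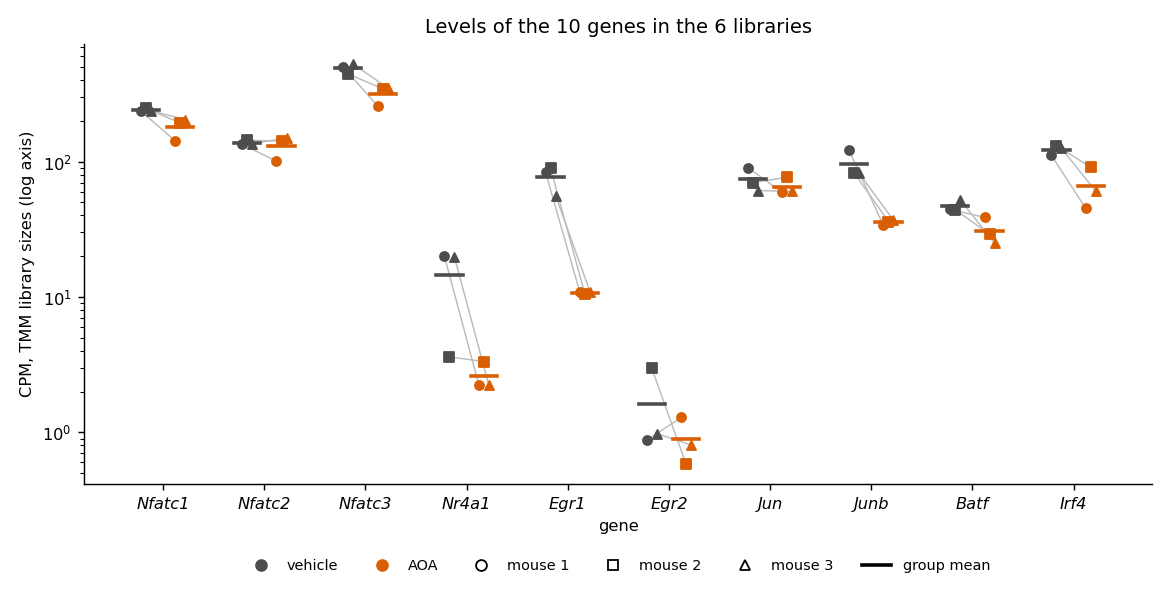
CPM of the 10 genes on a log axis, with vehicle libraries in grey, AOA libraries in orange, a symbol for each mouse, thin lines joining the cultures of a mouse and bars at the group means. The groups are separate for Egr1, Junb, Irf4, Nfatc3, Batf, Nfatc1 and, narrowly because of vehicle replicate 2, Nr4a1.

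Egr1 was the gene with the lowest fitted fold change of the 10. Egr1 (Entrez 13653, chromosome 18) encodes a zinc finger factor induced through Ras and MAP kinase signalling. Its levels were 83.7, 89.1 and 55.9 CPM in vehicle replicates 1, 2 and 3, and 10.8, 10.5 and 10.9 CPM in AOA replicates 1, 2 and 3. The AOA libraries lay close together and all far below the lowest vehicle library. Expression was 7.10-fold lower, from 76.2 ± 17.8 CPM (SD, n = 3) to 10.7 ± 0.226 CPM (log2 fold change -2.83, SE 0.20, adjusted p = 1.51e-05). Egr1 was lower within each of the 3 mice, by log2 differences of -2.94, -3.08 and -2.35.

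Egr2 (Entrez 13654, chr10:67534469-67542188), a related factor that takes part in T cell anergy, was near the limit of detection. The vehicle libraries held 11, 47 and 18 of its counts and the AOA libraries 28, 11 and 16, or 0.873, 2.98 and 0.977 CPM against 1.29, 0.581 and 0.807 CPM. The groups overlapped, and vehicle replicate 2 alone was high. The log2 fold change of -0.84 (SE 0.54, adjusted p = 0.215) became -0.01 without vehicle replicate 2 (adjusted p = 0.982). The fitted value thus rested on that library, and no difference was detected. Per gene length, in CPM per kilobase (RPKM), the log2 ratio of Egr2 to Egr1 went from -5.72 ± 0.84 in vehicle to -3.61 ± 0.56 in AOA libraries (SD, n = 3). This difference of 2.11 gave p = 0.1 in an exact two-sided permutation test, the smallest p that 3 against 3 libraries allow.

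Nr4a1 (Entrez 15370, chr15:101253902-101274795), also known as Nur77, is an orphan nuclear receptor used as a reporter of receptor signalling. Its levels were 20.1, 3.61 and 19.7 CPM in the vehicle libraries and 2.25, 3.33 and 2.22 CPM in the AOA libraries. Vehicle replicate 2 lay just above the AOA libraries, whereas the other vehicle libraries were far above them. Mean expression was 14.5 ± 9.40 CPM in vehicle and 2.60 ± 0.632 CPM in AOA libraries (SD, n = 3; log2 fold change -2.47, SE 0.56, adjusted p = 0.00495). The size of the difference varied between mice, with log2 differences of -3.09 in mouse 1 and -3.09 in mouse 3 but -0.11 in mouse 2. Without vehicle replicate 2 the fold change was -2.90 (adjusted p = 1.44e-05), and without AOA replicate 1 it was -2.38 (adjusted p = 0.0424).

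Junb and Jun, partners of FOS and BATF proteins in AP-1, differed from each other. Junb (Entrez 16477, chr8:84976909-84978748) was at 121, 82.7 and 81.9 CPM in vehicle libraries and at 33.7, 36.0 and 36.9 CPM in AOA libraries. All AOA libraries were below all vehicle libraries, and the highest vehicle value was that of replicate 1. Expression was 2.68-fold lower, from 95.3 ± 22.5 to 35.6 ± 1.62 CPM (log2 fold change -1.42, SE 0.17, adjusted p = 0.000216). Jun (Entrez 16476, chr4:95049036-95052222) was at 90.3, 69.9 and 61.1 CPM in vehicle libraries and at 59.2, 76.6 and 60.1 CPM in AOA libraries. The groups overlapped, the log2 fold change was -0.17 (SE 0.18, adjusted p = 0.431), and without vehicle replicate 1 it was 0.02. The log2 RPKM ratio of Junb to Jun, which compares both genes within each library, was 1.16 ± 0.10 in vehicle and -0.08 ± 0.20 in AOA libraries (SD, n = 3), a difference of -1.23 with no overlap (p = 0.1, exact two-sided permutation test, the smallest possible).

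Batf (Entrez 53314, chr12:85686720-85709087), a basic leucine zipper factor that pairs with JUN proteins, was at 44.4, 44.2 and 52.0 CPM in vehicle and 38.7, 29.0 and 24.9 CPM in AOA libraries. The groups did not overlap, but the gap between vehicle replicate 2 and AOA replicate 1 was small. Expression was 1.52-fold lower, from 46.9 ± 4.46 to 30.9 ± 7.09 CPM (SD, n = 3; log2 fold change -0.60, SE 0.18, adjusted p = 0.0192). The call was lost without vehicle replicate 3 (adjusted p = 0.0822), AOA replicate 2 (adjusted p = 0.0615) or AOA replicate 3 (adjusted p = 0.0828). The log2 RPKM ratio of Batf to Jun overlapped between the groups (1.18 ± 0.40 and 0.72 ± 0.42, SD, n = 3; p = 0.3, exact two-sided permutation test).

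Irf4 (Entrez 16364, chr13:30749233-30766981), the interferon regulatory factor that binds with BATF and whose level follows the strength of receptor signalling, was at 111, 131 and 125 CPM in vehicle libraries. It was at 45.2, 90.8 and 60.3 CPM in AOA libraries, all below the lowest vehicle value and with a wider spread. Mean expression was 122 ± 10.1 CPM in vehicle and 65.5 ± 23.2 CPM in AOA libraries (SD, n = 3; 1.87-fold lower, log2 fold change -0.91, SE 0.23, adjusted p = 0.00888). Irf4 was lower in all 3 mice, with log2 differences of -1.30, -0.53 and -1.05. The fold change was -0.70 without AOA replicate 1 (adjusted p = 0.0255).

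Among the calcineurin-regulated NFAT genes, Nfatc3 fell and Nfatc1 and Nfatc2 did not pass the test. Nfatc3 (Entrez 18021, chr8:106058818-106130537), which is expressed in thymocytes and mature T cells, was at 500, 443 and 525 CPM in vehicle and 257, 345 and 349 CPM in AOA libraries. The groups did not overlap, and AOA replicate 1 was the lowest. Expression was 1.54-fold lower, from 490 ± 42.2 to 317 ± 51.8 CPM (SD, n = 3; log2 fold change -0.63, SE 0.17, adjusted p = 0.0111), and the call was lost without vehicle replicate 3 (-0.55, adjusted p = 0.0544).

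Nfatc1 (Entrez 18018, chromosome 18), the NFAT gene known to amplify its own transcription in activated lymphocytes, was at 236, 247 and 237 CPM in vehicle and 142, 193 and 204 CPM in AOA libraries. All AOA libraries were below all vehicle libraries, and AOA replicate 1 was the lowest. The means were 240 ± 6.12 and 180 ± 33.1 CPM (SD, n = 3; log2 fold change -0.42, SE 0.16), with an adjusted p of 0.0516 that narrowly missed the threshold. With the mouse as a block the fold change was -0.43 and the adjusted p = 0.0470, past the threshold, but with the gene length trend also removed they were -0.25 and 0.136. Nfatc1 was also past the threshold under DESeq2 (adjusted p = 0.0378), limma voom (0.0443) and a minimum of 10 CPM in 3 libraries (0.0363). In the other alternatives it was not. Without AOA replicate 1 the fold change was -0.27 (adjusted p = 0.0536). Nfatc2 (Entrez 18019, chr2:168476410-168601657), the NFAT protein kept ready in the cytoplasm of resting T cells, was at 134, 144 and 136 CPM in vehicle and 101, 142 and 149 CPM in AOA libraries. AOA replicate 1 was below and AOA replicate 3 above every vehicle library (log2 fold change -0.08, SE 0.16, adjusted p = 0.706), and without AOA replicate 1 the fold change was 0.08.

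Summed over the 3 NFAT genes, the level per gene length was 130.1 ± 5.76 RPKM in vehicle and 92.5 ± 16.2 RPKM in AOA libraries (SD, n = 3). Nfatc3 held 62.5% ± 2.71 of this sum in vehicle and 57.1% ± 0.852 in AOA libraries (SD, n = 3). Nfatc2 held 12.7% ± 1.00 and 16.8% ± 0.497. Both shares were without overlap between the groups (p = 0.1 each, exact two-sided permutation test, the smallest possible), whereas the share of Nfatc1, 24.8% ± 1.71 and 26.1% ± 0.401, overlapped (p = 0.4, exact two-sided permutation test). That overlap came from vehicle replicate 2, at 26.8%. The difference in the Nfatc1 share was 1.27 percentage points, and it was 2.24 without vehicle replicate 2 (p = 0.1, exact two-sided permutation test) and 0.62 without vehicle replicate 3. The log2 RPKM ratio of Nfatc1 to Nfatc2 went from 0.97 ± 0.02 to 0.64 ± 0.03 with no overlap, a difference of -0.33 (p = 0.1, exact two-sided permutation test). In all 7 shares and ratios were tested, the 3 shares of a library sum to its total, and none could pass a threshold of 0.05 with 3 libraries a group.

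In the order of levels per gene length, Nfatc3 stood highest in both groups, at 81.4 ± 7.02 RPKM in vehicle and 52.7 ± 8.62 RPKM in AOA libraries (SD, n = 3). In vehicle, Batf (51.8 RPKM) and Junb (51.8 RPKM) followed and overlapped, then Nfatc1 (32.3 RPKM), and then Irf4 (25.7 RPKM), Egr1 (24.8 RPKM) and Jun (23.1 RPKM), which overlapped. Nfatc2 (16.5 RPKM), Nr4a1 (5.84 RPKM) and Egr2 (0.543 RPKM) stood below, each apart from its neighbour. In AOA libraries Batf (34.1 RPKM) overlapped with Nfatc3. Nfatc1 (24.2 RPKM) stood just below Batf without overlap, Jun (20.5 RPKM) overlapped with Nfatc1 and Junb (19.3 RPKM) with Jun. Nfatc2 (15.6 RPKM) stood below Junb without overlap, Irf4 (13.7 RPKM) overlapped with Nfatc2, and Egr1 (3.49 RPKM), Nr4a1 (1.05 RPKM) and Egr2 (0.301 RPKM) each stood apart. Junb thus stood above Nfatc1 in vehicle and below it, with an overlap, in AOA libraries, and Egr1 stood above Nfatc2 in vehicle and below it in AOA libraries.

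In the GENCODE vM21 annotation, 4 of the 10 genes overlap another gene on the opposite strand. These are Jun with the antisense gene Junos, Junb with Prdx2, Nfatc1 with an antisense transcript and Nfatc3 with Esrp2 and a short RNA gene. The libraries were stranded, but no source used here says whether the counting used strand, so reads of the partners may be mixed. Prdx2, a peroxiredoxin gene, was at a mean of 166 CPM in vehicle and 168 CPM in AOA libraries, with a log2 fold change of 0.02 (adjusted p = 0.952).

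The sequences just upstream of 4 genes, chosen by their results, are shown. Nr4a1 and Junb fell, and Jun and Egr2 did not pass the test. Egr2, being near the limit of detection, was not shown to be unchanged. Each run holds the 250 bases before a RefSeq transcript start (GRCm38.p6), 5′ to 3′ on the strand of the gene, with motif matches in capitals. The letters searched on both strands were TGANTCA (AP-1), TGCGTCA (a site like that of CREB and ATF factors), TGACATCA (the site known from the JUN promoter), TGACGTCA (the CRE), GCGTGGGCG and GCGGGGGCG (EGR), AAAGGTCA (NR4A), TATAAA and the CArG box bound by SRF. Windows were found for 8 of the 10 genes, and those of Nr4a1 (chr15:101266596-101266845, plus strand), Junb (chr8:84978749-84978998, minus strand), Jun (chr4:95052223-95052472, minus strand) and Egr2 (chr10:67537619-67537868, plus strand) read:
Nr4a1: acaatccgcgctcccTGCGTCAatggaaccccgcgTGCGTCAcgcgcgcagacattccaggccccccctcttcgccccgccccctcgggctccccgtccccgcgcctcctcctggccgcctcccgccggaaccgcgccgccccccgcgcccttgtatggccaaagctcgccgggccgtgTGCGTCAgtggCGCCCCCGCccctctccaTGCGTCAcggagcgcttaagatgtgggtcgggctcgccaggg
Junb: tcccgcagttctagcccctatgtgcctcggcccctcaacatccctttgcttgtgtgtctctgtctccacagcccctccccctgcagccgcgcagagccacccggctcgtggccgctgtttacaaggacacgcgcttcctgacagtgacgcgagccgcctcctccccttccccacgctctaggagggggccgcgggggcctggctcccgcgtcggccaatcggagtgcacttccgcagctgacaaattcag
Jun: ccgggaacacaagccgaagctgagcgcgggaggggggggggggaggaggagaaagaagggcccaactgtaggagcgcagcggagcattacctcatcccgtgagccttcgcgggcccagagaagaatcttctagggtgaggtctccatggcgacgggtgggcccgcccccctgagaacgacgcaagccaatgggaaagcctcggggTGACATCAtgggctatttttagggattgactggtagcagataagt
Egr2: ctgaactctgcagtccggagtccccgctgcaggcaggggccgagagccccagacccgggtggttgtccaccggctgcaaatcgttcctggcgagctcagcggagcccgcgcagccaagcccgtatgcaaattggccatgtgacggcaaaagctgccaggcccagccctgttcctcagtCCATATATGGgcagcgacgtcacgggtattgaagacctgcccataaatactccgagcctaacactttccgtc

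The Nr4a1 window held TGCGTCA 4 times, starting 235, 215, 71 and 42 bases before the start, and GCGGGGGCG on the opposite strand, at 60 bases. TGCGTCA was present in 1.75% and GCGGGGGCG in 2.57% of 32851 promoter windows of the same length. The Jun window held TGACATCA at 45 bases, found in 2.93% of windows, and the Egr2 window held a CArG box at 72 bases, found in 1.47%. The Junb window held none of the motifs. TGANTCA, TGACGTCA, GCGTGGGCG, AAAGGTCA and TATAAA, present in 6.75%, 1.55%, 0.536%, 1.34% and 12.4% of windows, were in none of the 4 printed sequences. The matches are a description of letters and were not tested for binding.

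Relatives of the 10 genes mostly fell too. Of 25 further NFAT, AP-1, EGR, NR4A and IRF genes, counting the EGR corepressors Nab1 and Nab2, 22 had a row and 21 were tested, of which 14 fell (66.7%, against 26.8% of all genes), 1 rose and 6 did not pass the test. Their median log2 fold change was -1.09, against -0.02 over all genes. This list and those below were chosen with earlier results of these data known. Their shares beside those of all genes are therefore a description. Nfatc4, Batf2 and Egr4 were not analysed here, and Fosb was below the filter, at 5.84 CPM in AOA replicate 1 and at most 0.697 CPM in the other libraries.

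**Figure D2:**
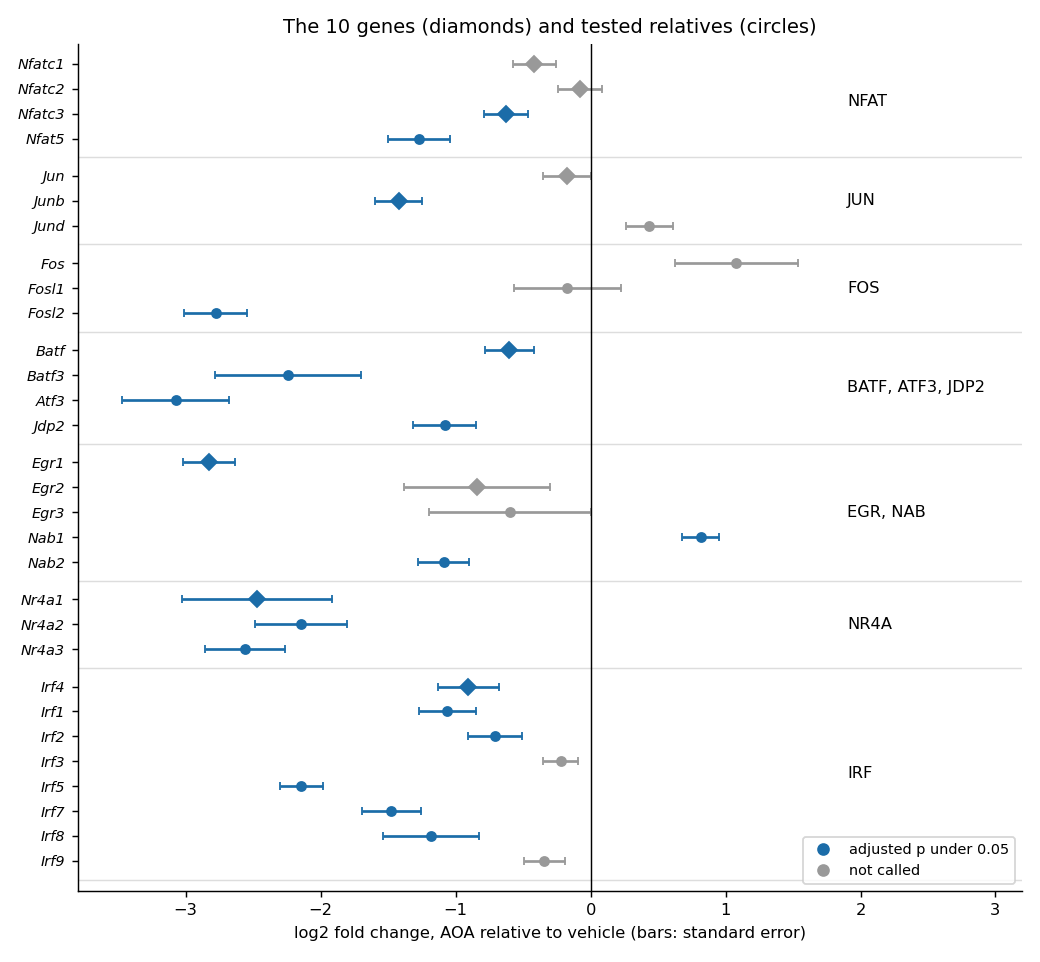
Log2 fold change, AOA relative to vehicle, of the 10 genes (diamonds) and of tested relatives (circles) by family, with standard errors as bars and calls at an adjusted p under 0.05 in blue. Nr4a1, Nr4a2 and Nr4a3 lie together between -2.15 and -2.56, whereas the JUN and EGR families spread, from -1.42 for Junb to 0.43 for Jund and from -2.83 for Egr1 to -0.60 for Egr3.

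The other 2 NR4A receptors fell with Nr4a1. Nr4a3 was at 33.5, 18.4 and 25.4 CPM in vehicle and 3.08, 5.92 and 4.09 CPM in AOA libraries (log2 fold change -2.56, SE 0.30, adjusted p = 0.000164). Nr4a2 was at 10, 5.77 and 7.00 CPM in vehicle and 1.06, 2.11 and 1.97 CPM in AOA libraries (log2 fold change -2.15, SE 0.34, adjusted p = 0.000845). Neither overlapped, and vehicle replicate 2 was the lowest vehicle library for each of the 3 receptors. The RPKM summed over the 3 genes was 12.7 ± 5.54 in vehicle and 2.34 ± 0.638 in AOA libraries (SD, n = 3).

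In the EGR family Egr3 did not pass the test, at 1.11, 4.75 and 1.41 CPM in vehicle and 0.736, 1.80 and 2.32 CPM in AOA libraries (adjusted p = 0.428). As for Egr2, vehicle replicate 2 was the highest and the groups overlapped, and without it the log2 fold change of Egr3 turned from -0.60 to 0.37 (adjusted p = 0.540). Summed EGR RPKM was 26.0 ± 6.37 in vehicle, of which Egr1 made up 95.8% on average, and 4.19 ± 0.181 in AOA libraries, of which Egr1 made up 83.3%. The EGR corepressors moved in opposite directions. Nab1 rose from 84.6 ± 9.31 to 149 ± 9.55 CPM (log2 fold change 0.81, adjusted p = 0.000995), and Nab2, itself an EGR target, fell from 52.6 ± 7.57 to 24.8 ± 5.23 CPM (-1.09, adjusted p = 0.00132).

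Within the AP-1 family Fosl2 made up 96.2% of the summed FOS RPKM in vehicle and 70.5% in AOA libraries on average and fell from 205 ± 63.3 to 29.9 ± 2.03 CPM (log2 fold change -2.78, adjusted p = 3.33e-05). Its libraries were at 231, 133 and 251 CPM in vehicle and at 27.6, 31.6 and 30.5 CPM in AOA, so that the groups were far apart. Fos itself was near 1 CPM in vehicle and at 3.63, 2.64 and 1.11 CPM in AOA libraries, overlapping (log2 fold change 1.08, SE 0.46, adjusted p = 0.0717). The fold change of Fos was 0.68 without AOA replicate 1 (adjusted p = 0.274) and 1.43, past the threshold, without AOA replicate 3 (adjusted p = 0.0200). Fosl1 had a log2 fold change of -0.17 (adjusted p = 0.737), which was 0.09 without vehicle replicate 2. Jund, the remaining JUN gene, was at 190, 133 and 128 CPM in vehicle and 202, 188 and 221 CPM in AOA libraries, with an overlap and a log2 fold change of 0.43 (adjusted p = 0.0613). Jund was past the threshold with the mouse as a block (0.45, adjusted p = 0.0464), also with the length trend removed (adjusted p = 0.0256), under DESeq2 (adjusted p = 0.0369), without the low-count filter (adjusted p = 0.0456) and without vehicle replicate 1 (0.66, adjusted p = 0.0132). Summed over Jun, Junb and Jund, RPKM was 127 ± 28.8 in vehicle and 110.5 ± 4.54 in AOA libraries (SD, n = 3), but its make-up differed. Junb made up 39.7% to 41.1% of it in vehicle and 17.1% to 18% in AOA libraries, and Jund 40.9% to 41.2% and 59.9% to 66.3%.

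**Figure D3:**
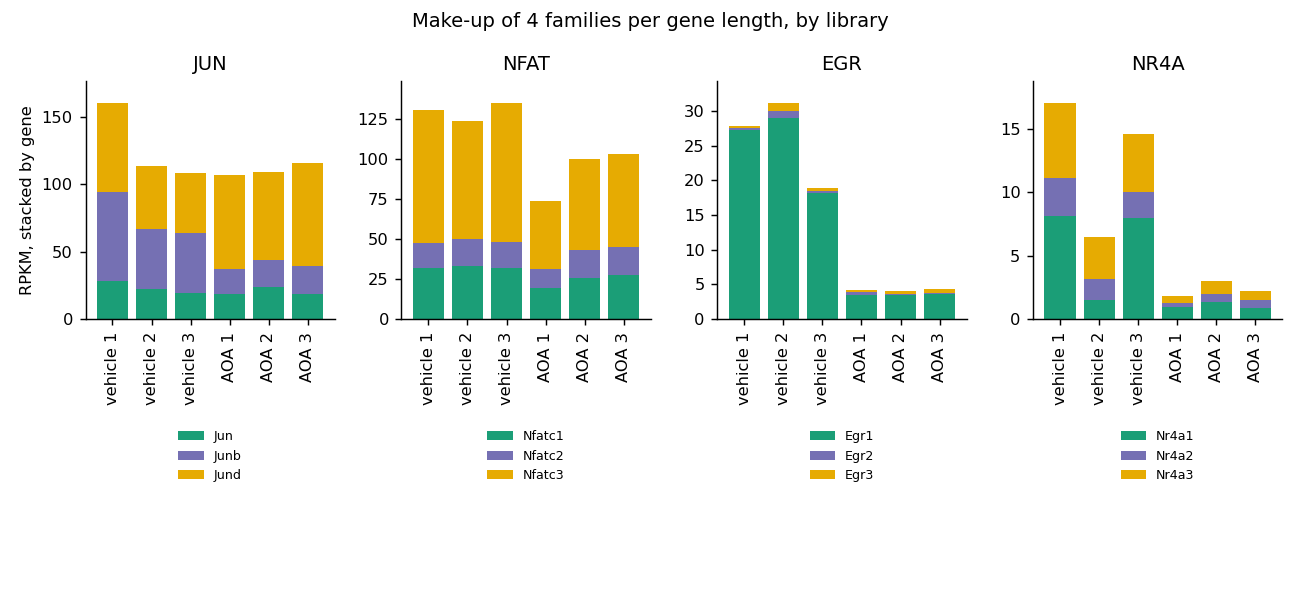
RPKM of the genes of the JUN, NFAT, EGR and NR4A families, stacked in each of the 6 libraries, with a scale for each family. The JUN sum lies between 107 and 160 RPKM in all libraries while the Junb part is smaller in AOA libraries, and the NFAT, EGR and NR4A sums are lower in every AOA library than in any vehicle library.

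Relatives of Batf that also form AP-1 dimers fell. Batf3 had a log2 fold change of -2.24 (adjusted p = 0.0069), Atf3, a stress-induced factor, of -3.08 (adjusted p = 0.000293), and Jdp2 of -1.08 (adjusted p = 0.00408). Atf3 was at 4.44, 6.15 and 3.91 CPM in vehicle and at most 0.899 CPM in AOA libraries. Nfat5, the NFAT relative that responds to osmotic stress and lacks calcineurin control, fell from 148 ± 51.6 to 61.6 ± 6.80 CPM (log2 fold change -1.27, adjusted p = 0.00162).

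Other IRF genes mostly fell. Irf1 (-1.06), Irf2 (-0.71), Irf5 (-2.14), Irf7 (-1.48) and Irf8 (-1.18) were called, and Irf3 (-0.22, adjusted p = 0.180) and Irf9 (-0.34, adjusted p = 0.0816) were not. Irf8, which acts in CD8+ effector differentiation as well as in myeloid cells, was at 37.6, 98.4 and 42.9 CPM in vehicle and 21.7, 34.6 and 22.6 CPM in AOA libraries, and vehicle replicate 2 was again the highest. Without it the fold change of Irf8 was -0.58 (adjusted p = 0.0390). The call of Irf8 was lost without AOA replicate 1 (adjusted p = 0.101) or AOA replicate 3 (adjusted p = 0.0748), and that of Irf2 without vehicle replicate 1 (adjusted p = 0.0631), vehicle replicate 3 (adjusted p = 0.0633) or AOA replicate 1 (adjusted p = 0.0578). Irf1, an interferon-induced activator, was at 443, 258 and 448 CPM in vehicle, compared with 176, 181 and 194 CPM in AOA libraries.

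The genes that carry the signal to these factors were taken next. All 16 listed genes of calcium release, calcium entry, calmodulin and calcineurin were tested, and 5 rose (31.2%), 6 fell (37.5%) and 5 did not pass the test, with a median of -0.21. Both shares were near those of all genes, 26.2% and 26.8%. The calmodulin genes Calm2 (log2 fold change 1.20) and Calm3 (0.99) rose. Phospholipase Plcg1 (-1.24) and the IP3 receptors Itpr3 (-1.14) and Itpr1 (-0.82), which start the calcium signal, fell. Also called, with absolute log2 fold changes between 0.38 and 0.81, were the calcineurin subunits Ppp3cb and Ppp3r1, which rose, and Ppp3cc, the IP3 receptor Itpr2 and the channel gene Orai2, which fell. The calls of Itpr2 and Ppp3cb were each lost without vehicle replicate 1 (adjusted p = 0.0551 and 0.0710) or vehicle replicate 3 (0.0616 and 0.0526), that of Itpr2 without AOA replicate 1 (0.0604), and that of Ppp3cb without AOA replicate 2 (0.0610) or 3 (0.0705) and with the mouse as a block (0.0522). Among 9 measured genes of 11 that restrain calcineurin or NFAT, 1 rose, the calcineurin inhibitor Rcan3 (0.87), and 0 fell, with a median of 0.17, where 26.2% of all genes rose and 26.8% fell. Without AOA replicate 1 the number that rose was 3, and without vehicle replicate 2 the number that fell was 1.

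Among 20 genes of the Ras and MAP kinase chain with SRF and its partners, 6 rose, 1 fell and 13 did not pass the test, with a median of 0.10. The 30.0% that rose was near the 26.2% of all genes, and 5.0% fell, against 26.8% of all genes. The kinase gene Mapk8 (0.92), which encodes JNK1, and Map2k4 (0.55), which acts above it, rose, and Braf (-0.78) fell. The call of Map2k4 was lost without vehicle replicate 1 (adjusted p = 0.0547) or without AOA replicate 3. Without vehicle replicate 1 the number that rose was 3, and without vehicle replicate 2 the number that fell was 3.

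Other early response genes mostly fell. Of 19, 13 fell (68.4%, against 26.8% of all genes), 3 rose (15.8%, against 26.2%) and 3 did not pass the test, and the median was -0.90. Tnfaip3 (-3.45), which restrains NF-kB signalling, Bhlhe40 (-2.48) and Ier3 (-1.75) had the lowest fold changes. Klf6 (0.57), Nfkbid (0.55) and Myc (0.45) rose, but the number that rose was 0 without vehicle replicate 3 and 1 without vehicle replicate 1 or any AOA replicate in turn. In vehicle replicate 2 Tnfaip3 was at 99.0 CPM, compared with 321 and 278 CPM in the other vehicle libraries.

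Genes known as targets of these factors were taken in 2 lists. Of 15 activation targets 10 had a row and 9 were tested, of which 1 rose (11.1%), 2 fell (22.2%, near the 26.8% of all genes) and 6 did not pass the test, with a median of 0.03. Tnf rose (1.35), and Cd40lg (-2.58) and Fasl (-1.93) fell. Fasl, the death ligand of cytotoxic cells, was at 77.8, 78.0 and 76.0 CPM in vehicle and 27.1, 20.1 and 13.6 CPM in AOA libraries, while Il2ra, the IL-2 receptor alpha chain, was at 535, 897 and 593 CPM and at 479, 1014 and 568 CPM (log2 fold change 0.03, adjusted p = 0.950). Il10 was below the filter, and Il2, Il3, Il4, Il5 and Il13 were not analysed here. Of 14 anergy and exhaustion genes tied to NFAT, EGR or NR4A factors, 13 were tested and 10 fell (76.9%, against 26.8% of all genes), 1 rose and 2 did not pass the test, with a median of -1.86. The calls of Dgkz and Cd244 were lost without AOA replicate 1, 2 or 3, which left 8 that fell. That of Dgkz was also lost, among other settings, with the mouse as a block (adjusted p = 0.0644). That of Cd244 was lost under limma voom as well (adjusted p = 0.0522). Havcr2 (-5.01), Lag3 (-3.23) and Pdcd1 (-2.76) had the lowest fold changes and Tox (1.42) rose. Havcr2 was highest in vehicle replicate 2, and without it the log2 fold change was -4.19.

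Another 2 genes of the anergy list, both tied to EGR factors, were chosen after their values were seen. Cblb, a ubiquitin ligase that restrains receptor signalling, was at 637, 553 and 561 CPM in vehicle and 118, 164 and 151 CPM in AOA libraries (log2 fold change -2.02, SE 0.17, adjusted p = 3.21e-05). Dgka, which removes the diacylglycerol that drives Ras, was at 1055, 562 and 1076 CPM in vehicle and 306, 301 and 339 CPM in AOA libraries (log2 fold change -1.51, SE 0.24, adjusted p = 0.000907). The groups did not overlap for either gene. Itch (-0.75) and Dgkz (-0.46) of the same list fell by less. Rnf128 (-0.88, adjusted p = 0.112) and Ndrg1 (-0.11, adjusted p = 0.737) did not pass the test.

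**Figure D4:**
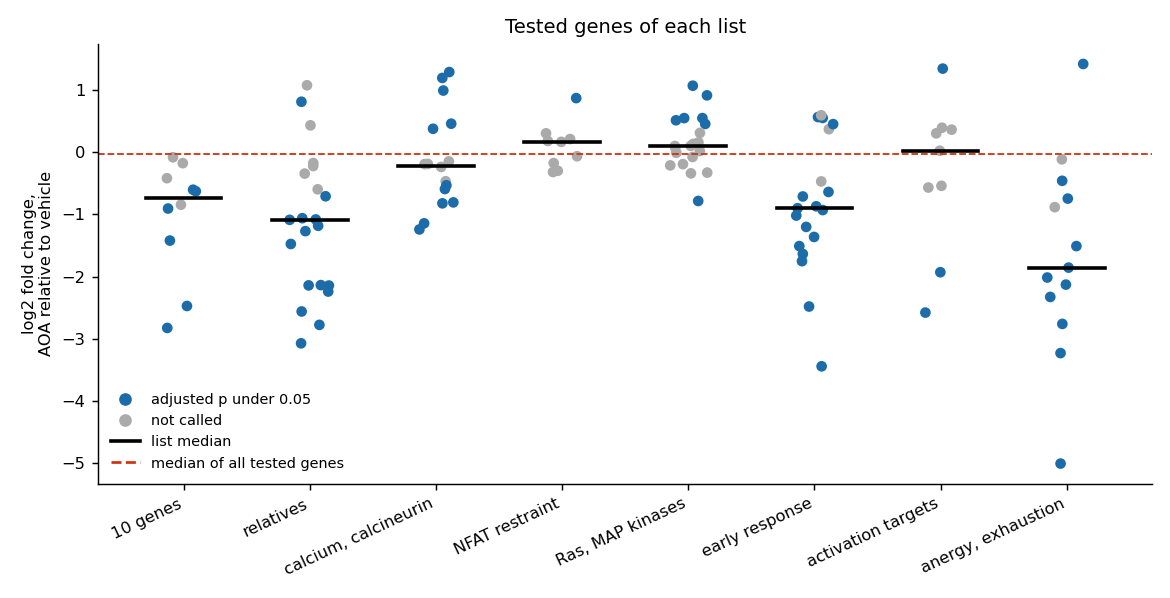
Log2 fold change, AOA relative to vehicle, of each tested gene of 8 lists, with calls at an adjusted p under 0.05 in blue, list medians as black bars and the median of all genes as a dashed line at -0.02. The relatives, the early response genes and the anergy and exhaustion genes have medians between -0.90 and -1.86, and those of the other signalling and target lists lie between -0.21 and 0.17.

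The directions of the 10 genes were also computed under 14 alternative analyses, of which 13 could be run for Nr4a1 and Egr2. Egr1, Junb and Irf4 were called lower in 14 of 14 and Nr4a1 in 13 of 13, Nfatc3 in 13 and Batf in 11 of 14. Nfatc1 was called lower in 4 of 14, and Nfatc2, Jun and Egr2 in 0. The number of the 10 called lower was 6 without vehicle replicate 2 and 6 without AOA replicate 1, the libraries that stood apart.

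**Figure D5:**
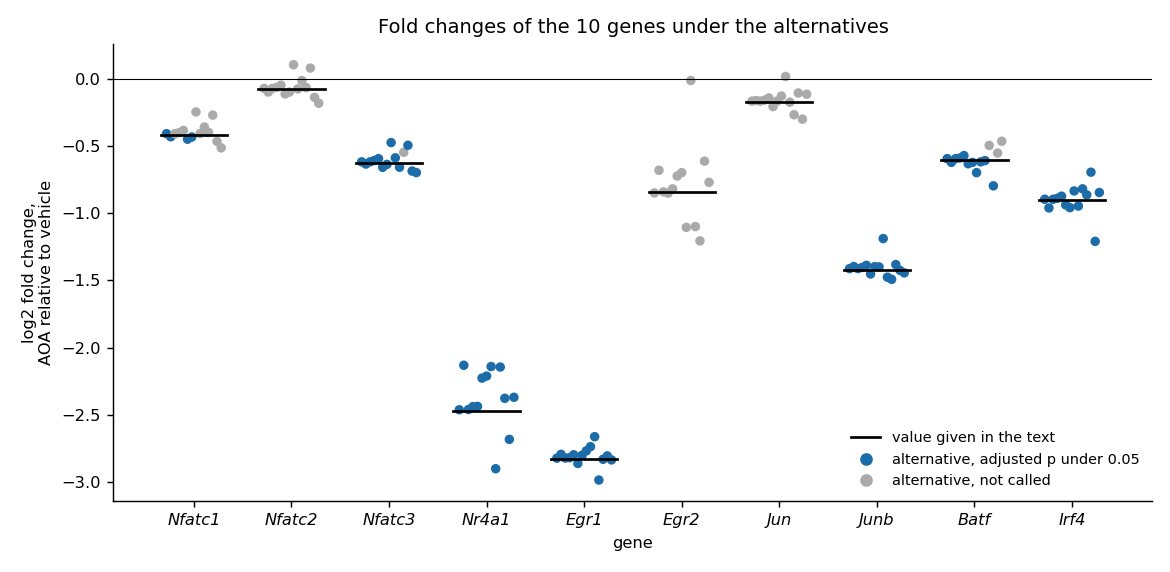
Log2 fold change of the 10 genes under the alternatives (points, blue where the adjusted p was under 0.05) with the value given above as a bar. Egr1, Nr4a1, Junb and Irf4 are blue throughout, Nfatc2 and Jun have points on both sides of 0, and Egr2 reaches -0.01.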

How the data were processed

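The authors prepared stranded messenger RNA libraries, sequenced paired-end reads, aligned them by STAR with its defaults and counted reads that mapped uniquely. They deposited the raw counts per gene. The submitters' processing notes name mm10, bcl2fastq, featureCounts and DESeq2, but no source used here gives versions or the annotation counted. The deposited counts covered 11922 genes, and total counts per library are given above. The floor of a library, 3 counts, corresponds to 0.138 to 0.238 CPM. Symbols were matched to the counts by name, and Cd244 by its synonym Cd244a. The members and gene lists were chosen with earlier results of these data known.

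Counts were filtered with filterByExpr (minimum count 10, 11759 genes kept), scaled by TMM and fitted in edgeR 4.0.16 (quasi-likelihood test) with robust dispersions in R 4.3.3, without a mouse term, with Benjamini-Hochberg adjustment over all genes tested. A gene was called at an adjusted p under 0.05. CPM were taken over TMM-scaled library sizes, and RPKM are CPM per kilobase of the deposited gene length. Per the labels, which number the mouse donor, same-numbered libraries come from the same mouse. The correlation of their deviations from the group means was 0.0868, 0.189 and 0.194 over 11759 genes in mice 1, 2 and 3. Since each group holds cultures of 3 mice, p-values reflect the spread between these cultures. The steps were tested on simulated data. In these simulations few genes changed and no library was set apart, which differs from the data here. Alternatives were DESeq2 1.42.0, voom of limma 3.58.1, other scalings, filters and fold minimums, the mouse as a block, alone or with a gene length trend removed, and each library left out.

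The 10 members are named with all values, each tested relative by its values, and of every other list up to 3 called genes per direction with the largest absolute fold change, others by count and range or, below the filter, by name. Results of some genes that this rule takes are not reported here.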

Additional observations from a re-analysis of the deposited data

How the results depend on the processing

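Of the values and counts recomputed for whole lists, shares and ratios, 282 stayed within the limits set for them and 29 moved. For shares and ratios the limit was the sign alone, so a value that stayed could differ in size. For counts it was a fixed ratio, and 4 against 6 of the 10 genes lower stayed within it. A minimum of 1 for the size of the log2 fold change left 3081 of the 6233 genes called and 3 of the 10 genes lower. It left 0 relatives, 2 calcium and calcineurin genes, 0 restraint genes, 1 Ras and MAP kinase gene and 0 early response genes higher, and 2 calcium and calcineurin, 0 Ras and MAP kinase and 8 early response genes lower. Relatives called higher numbered 2 under DESeq2, without a low-count filter and with the mouse as a block, alone or with the length trend removed, Jund being added each time. Ras and MAP kinase genes called lower numbered 2 under DESeq2 and at a minimum of 10 CPM in 3 libraries, which also left 1 activation target lower. With the replicate block and the length trend removed 3 restraint genes were higher. The cause of these shifts was not tested, beyond the fewer genes that a fold or CPM minimum leaves.

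Leaving out each library in turn gave 4952 to 6796 genes called and 4 to 6 of the 10 lower, 1 to 2 relatives higher, 3 to 6 Ras and MAP kinase genes higher and 1 to 3 lower, 1 to 3 restraint genes higher and 0 to 1 lower, and 0 to 3 early response genes higher. Between 8 and 10 anergy and exhaustion genes were called lower. Over these fits the log2 fold change ran from -0.18 to 0.079 for Nfatc2, positive without AOA replicate 1, and from -0.30 to 0.017 for Jun, positive without vehicle replicate 1. With the length trend removed and the block it was 0.10 for Nfatc2. Neither gene was called.

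With the mouse as a block 6292 genes were called, 6007 of them also called without it, and 7 of the 10 were lower, Nfatc1 being added. The block changed the call of no other gene of the 10. With 3 libraries a group, exact tests of shares and ratios could not go below 0.1, and Egr2, Egr3, Fos and Fosb were near the depth limit.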
